A study of Rattus norvegicus with 11 samples.

Results

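The tumour necrosis factor (TNF) family and its receptors were followed in RNA from rat dorsal root ganglia after nerve injury. Members were the rows of the expression table whose symbol begins with Tnfsf or Tnfrsf, together with Tnf, Lta, Ltb, Ltbr, Fas, Faslg, Cd40, Cd40lg and the signalling genes Traf1, Traf2, Traf3, Traf5, Traf6, Tnfaip3, Birc3 and Nfkbia. The table of 16811 genes held 37 of them, namely 13 ligands, 5 receptors with a death domain, 14 other receptors and 5 intracellular proteins. Traf1, Traf5 and Tnfaip3 were not analysed here. Of the 37, 29 were tested, those that reached 10 or more scaled counts in 3 or more libraries.

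The series sequenced total RNA of ganglia from Sprague-Dawley rats to ask how G9a, a histone methyltransferase, acts on potassium channel genes when acute pain turns chronic. There were 11 libraries in 3 groups. Sham libraries (n = 4) came from control ganglia of the right side, SNL libraries (n = 4) from ganglia of the left side after spinal nerve ligation, and SNL plus UNC0638 libraries (n = 3) from ligated ganglia of the left side of rats given UNC0638, an inhibitor of G9a and the related enzyme GLP, after the ligation. The sources used here do not give age, sex, dose, route, time after surgery or whether ganglia were pooled. Side and ligation cannot be told apart, because every Sham library was from the right and every ligated one from the left. There was no group given UNC0638 without ligation, so the compound can be described only in ligated ganglia. Labels give replicate numbers but not whether replicates were separate animals, so the p-values measure the spread between these libraries, which may be technical.

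TNF family ligands are mostly trimers on the cell surface that can be shed, and their receptors cluster when bound. Receptors with a death domain can recruit adaptor proteins that lead to caspases, while the others bind TRAF proteins directly and lead to NF-kB and stress kinases. Birc3 is a ubiquitin ligase of these receptor complexes and Nfkbia encodes IkB alpha, which holds NF-kB in the cytoplasm, and both genes are themselves induced by NF-kB. In the injured ganglion, TNF is known as a product of macrophages, satellite glia and Schwann cells that acts on sensory neurons.

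The values are gene read counts that the submitters scaled to a common library size, and they are called scaled counts here. Their totals were 9450045 to 11347920 per library, and 1 read was worth 0.429 to 1.56 scaled counts, which gives an estimated 6127914 to 24367652 reads per library. Replicate 1 of SNL plus UNC0638 stood apart through skeletal muscle transcripts, with a summed value of 87304 over 14 muscle genes against 253 to 692 in the Sham and SNL libraries. Sham replicate 3 was the highest of its group, well above the other 3, for Tnfrsf1a, Tnfrsf21, Ltbr and Traf3. Sensory neuron markers summed to 415791 to 533825 in Sham, 204985 to 296872 in SNL and 186823 to 297649.5 in SNL plus UNC0638, so the tissue label was met in every library. Values are of whole ganglia, where fewer cells of a type and less RNA per cell cannot be told apart. In the RefSeq annotation 10 of the 37 members overlap another gene (Tnfsf10, Tnfsf12, Tnfsf13, Tnfsf15, Fas, Tnfrsf10b, Tnfrsf1b, Tnfrsf8, Tnfrsf19 and Birc3), so their counts are uncertain where reads were shared. Results that depend on 1 library are given with and without it.

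After spinal nerve ligation, the members of the family that were called were all higher. The genes called at a Benjamini-Hochberg adjusted p under 0.05 (limma) were 16 of the 29 tested members, led by the receptors Tnfrsf8, Tnfrsf18, Tnfrsf12a, Tnfrsf19, Tnfrsf14 and Tnfrsf1b. They made up 55.2% of the members tested, where 24.8% of all 12085 genes tested were called higher. Tnfrsf8, Tnfrsf14 and Tnfrsf18 passed the minimum value only through ligated libraries. Their rise was in part built into their selection, and the share is in part fixed by it. No member was called lower by limma, and none was lower at an unadjusted p under 0.05 either, where 23.4% of all genes were called lower. This holds for the symbols of the rule, since Ngfr, a superfamily receptor outside it, was called lower (log2 fold change -0.95, adjusted p = 0.0154). By role, 3 of 8 ligands, 2 of 5 death domain receptors, 9 of 11 other receptors and 2 of 5 intracellular proteins rose. The median log2 fold change was 0.96 over the members and -0.0033 over all genes. In 15 members every SNL library lay above every Sham library, which was the case for 22.1% of all genes, and in none did every SNL library lie below, against 21.2%. With scaling to the upper quartile the count of members called higher was 21, and that scaling moved the median of all genes to 0.11 and the share of calls that were higher from 51.4% to 62.9%. Without Sham replicate 3 it was 22, and the calls over all genes rose as well, to 3346 higher of 12072 tested from 2995 of 12085.

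Ligated ganglia after UNC0638 held more of 8 members than ligated ganglia alone and less of 1. The higher ones were Tnfrsf14, Tnf, Tnfrsf25, Faslg, Birc3, Tnfrsf10b, Tnfrsf11a and Tnfrsf1b, and the lower one was Tnfrsf12a. The 8 were 27.6% of the members tested beside 13.5% of all genes called higher, and the 1 was 3.45% beside 14.3% called lower. Tnf and Faslg, 2 of the 8, were tested at all only because their SNL plus UNC0638 libraries were high, so the share is in part fixed by that minimum and nothing is read from it. In 11 members every SNL plus UNC0638 library lay above every SNL library (17.7% of all genes) and in 2, Tnfrsf8 and Tnfrsf12a, every one lay below (19.9% of all genes). The median log2 fold change was 0.50 over the members and 0.0066 over all genes. Leaving out replicate 2 of SNL plus UNC0638 left 4 of 27 tested members called higher, and leaving out its replicate 3 left 5 of 26. Tnf and Faslg were not tested in either fit, as they then had too few libraries at the minimum value. Leaving out Sham replicate 3 gave 11. Without Sham replicate 3 the calls over all genes rose as well, to 2213 higher from 1630.

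Against Sham, SNL plus UNC0638 libraries had higher values of 24 of the 29 members, or 82.8%, beside 25.5% of all genes. None was lower by limma, also at an unadjusted p under 0.05, beside 26.0% of all genes. In 19 members the groups did not overlap with SNL plus UNC0638 above (23.4% of all genes), and in none with it below (24.9% of all genes). The median was 1.46 over the members and -0.011 over all genes. The count of higher members was 17 of 27 tested without SNL plus UNC0638 replicate 2 and 16 of 26 without its replicate 3. Tnf and Faslg were not tested in either of these fits. The comparison shares its Sham libraries with that of SNL and Sham, and its treated libraries with that of SNL plus UNC0638 and SNL, so the counts of the comparisons are not independent of each other. Tnf and Faslg passed the minimum value only through SNL plus UNC0638 libraries, Tnfrsf8 only through SNL libraries, and Tnfsf13b, Tnfrsf14 and Tnfrsf18 through both ligated groups, so a difference from Sham was built into their selection. For Tnf, Faslg and Tnfrsf8 the difference between the ligated groups was built into it as well.

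**Figure D1:**
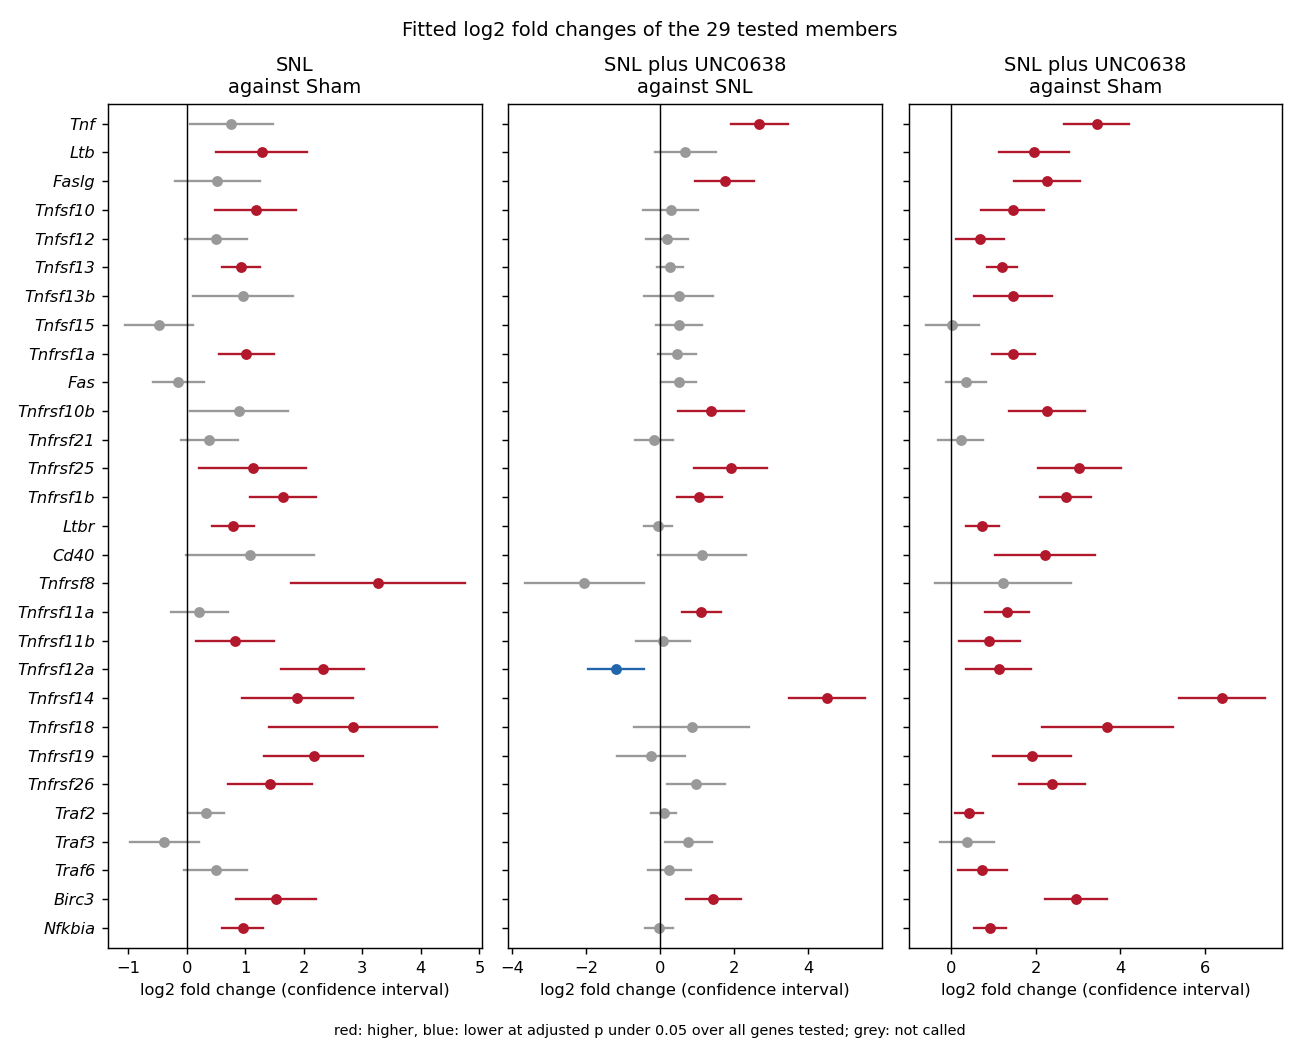
Log2 fold change (limma, lines for the 95% interval) of the 29 tested members, 1 panel for each comparison, in red where called higher, in blue where called lower and in grey where not called. The coloured points lie to the right of 0 except Tnfrsf12a, at -1.20 in SNL plus UNC0638 against SNL.

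Promoters of 4 members that rose in at least 1 comparison are printed for the motifs they hold. Each is the 250 bases before the start of the gene in RefSeq for build GRCr8, which is later than the build of the counts (rn4), printed 5′ to 3′ along the gene. Ltb and Nfkbia hold a match to the kappa B consensus bound by NF-kB, Tnfrsf1b holds an AP-1 site, and Tnf has neither in this window. Capitals mark those matches. The windows are at chr20:3634055-3634304, minus strand for Ltb, chr6:78597073-78597322, minus strand for Nfkbia, chr5:162387412-162387661, minus strand for Tnfrsf1b and chr20:3626435-3626684, plus strand for Tnf.
Ltb: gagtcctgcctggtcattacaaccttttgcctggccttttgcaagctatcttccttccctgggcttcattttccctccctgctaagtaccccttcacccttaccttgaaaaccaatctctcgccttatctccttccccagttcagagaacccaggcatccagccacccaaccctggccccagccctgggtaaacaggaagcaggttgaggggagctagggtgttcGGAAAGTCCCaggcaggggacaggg
Nfkbia: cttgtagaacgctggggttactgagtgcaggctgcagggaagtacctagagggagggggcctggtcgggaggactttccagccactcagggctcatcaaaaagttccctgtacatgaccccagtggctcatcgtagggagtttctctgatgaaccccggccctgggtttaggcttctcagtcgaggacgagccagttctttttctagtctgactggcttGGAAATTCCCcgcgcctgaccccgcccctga
Tnfrsf1b: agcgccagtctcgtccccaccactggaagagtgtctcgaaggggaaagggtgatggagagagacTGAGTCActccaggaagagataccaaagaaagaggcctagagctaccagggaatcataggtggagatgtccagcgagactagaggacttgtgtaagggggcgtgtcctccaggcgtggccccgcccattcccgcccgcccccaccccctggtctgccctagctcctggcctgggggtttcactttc
Tnf: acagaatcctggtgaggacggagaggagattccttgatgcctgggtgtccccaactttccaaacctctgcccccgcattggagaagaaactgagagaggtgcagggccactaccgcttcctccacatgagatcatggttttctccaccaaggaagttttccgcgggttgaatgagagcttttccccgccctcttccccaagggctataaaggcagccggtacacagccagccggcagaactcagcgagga

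Both strands of 27457 RefSeq promoters of this length were searched for the 2 motifs. A kappa B consensus was in 6.41% of them and in 5 of the 20 tested members that have an entry (25%), namely Ltb, Fas, Tnfrsf8, Traf3 and Nfkbia. An AP-1 site, TGACTCA or its reverse complement TGAGTCA, was in 3.98% of all and in 2 of the 20 members (10%), Tnfrsf1b and Tnfrsf8. Of those with a kappa B match, Ltb, Tnfrsf8 and Nfkbia rose after ligation, and Fas and Traf3 were not called in that comparison. The match ends 22 bases before the start in Nfkbia and 16 bases before it in Ltb. The 2 kappa B matches of Tnfrsf8 overlap by all but 1 base, and no kappa B match overlaps an AP-1 site. A match is a string of letters and not a measured binding site.

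Among the ligands, Tnf itself was low in ligated ganglia and several-fold higher after UNC0638. Its scaled counts were 4.18, 2.28, 4.68 and 3.85 in the Sham libraries, 9.41, 6.86, 7.51 and 4.56 in SNL and 36.8, 68.1 and 47.7 in SNL plus UNC0638, from an estimated 13, 41 and 122 reads in all. All 3 UNC0638 libraries lay above all 8 others, while Sham and SNL met at 4.56 to 4.68. SNL plus UNC0638 was 7.18-fold above SNL in the means (log2 fold change 2.67 ± 0.35 SE, adjusted p = 0.000774) and 13.6-fold above Sham (log2 fold change 3.44 ± 0.35 SE, adjusted p = 7.62e-05). Since Tnf passed the minimum value through these 3 libraries alone, both differences are in part built into its selection. With 5 added instead of 1, that from Sham was 2.65 on the log2 scale. SNL itself did not pass against Sham (log2 fold change 0.76 ± 0.33 SE, adjusted p = 0.0713), although it did without SNL replicate 4 (log2 fold change 0.93, adjusted p = 0.0483) and with upper-quartile scaling (0.85, adjusted p = 0.048).

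Faslg, the ligand that triggers death through Fas on the target cell, was also highest after UNC0638. It read 5.56, 3.41, 3.12 and 3.07 in Sham, 4.70, 5.57, 7.51 and 5.47 in SNL and 15.2, 20.1 and 32.2 in SNL plus UNC0638. Again the UNC0638 libraries were the highest 3, and Sham and SNL overlapped. The difference from SNL was 3.88-fold (log2 fold change 1.74 ± 0.36 SE, adjusted p = 0.00569) and that from Sham 5.94-fold (log2 fold change 2.26 ± 0.36 SE, adjusted p = 0.000522, or 1.61 with 5 added). Faslg, too, was tested only because of its UNC0638 libraries. Against Sham, SNL gave a log2 fold change of 0.52 (adjusted p = 0.215).

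Ltb encodes lymphotoxin beta, which joins lymphotoxin alpha to form the membrane ligand of Ltbr. Its values were 9.74, 11.4, 17.1 and 6.92 in Sham, 39.5, 27.4, 26.3 and 20.1 in SNL and 26.9, 71.2 and 46.4 in SNL plus UNC0638. Each ligated library exceeded each Sham library, and the ligated groups overlapped. Ltb rose 2.51-fold after ligation (log2 fold change 1.28 ± 0.35 SE, adjusted p = 0.0109) and stood 4.27-fold above Sham after UNC0638 (log2 fold change 1.96 ± 0.38 SE, adjusted p = 0.00152), with no call between the ligated groups (log2 fold change 0.68, adjusted p = 0.193). Lta, its partner, did not exceed 1.80 in any library and was not tested. Lta, Tnf and Ltb are neighbours in the RefSeq annotation, and the sources used here do not say whether reads were counted by strand.

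The death ligand Tnfsf10 (TRAIL) and the B cell growth factor Tnfsf13 (APRIL) also rose with ligation. Tnfsf10 read 20.9, 26.1, 32.7 and 21.5 in Sham, 69.6, 54.9, 39.0 and 73.9 in SNL and 38.6, 92.8 and 96.7 in SNL plus UNC0638, with both ligated groups clear of Sham. It was higher by 2.34-fold in SNL (log2 fold change 1.18 ± 0.32 SE, adjusted p = 0.00948) and 3.00-fold in SNL plus UNC0638 (log2 fold change 1.46 ± 0.34 SE, adjusted p = 0.00426). For Tnfsf13 the values were 47.3, 47.7, 54.5 and 43.8, then 97.8, 95.2, 92.4 and 86.6, then 94.2, 124 and 121 in the same order of groups. These were tight groups, with a mean ± SD of 48.3 ± 4.49 (n = 4) in Sham and 93.0 ± 4.79 (n = 4) in SNL, and no ligated library came near a Sham one. Tnfsf13 rose 1.92-fold in SNL (log2 fold change 0.93 ± 0.15 SE, adjusted p = 0.000514) and 2.34-fold against Sham after UNC0638 (log2 fold change 1.20 ± 0.16 SE, adjusted p = 0.00024). Neither ligand was called between the ligated groups (Tnfsf10 log2 fold change 0.28, adjusted p = 0.548, and Tnfsf13 log2 fold change 0.27, adjusted p = 0.224). Tnfsf12 and Tnfsf13 are neighbours that both overlap Eif4a1l in RefSeq.

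Tnfsf12 (TWEAK), the ligand of Tnfrsf12a, was called only in SNL plus UNC0638 against Sham. It read 100.2, 81.8, 168 and 116 in Sham, 154, 128, 207 and 161 in SNL and 156, 252 and 154 in SNL plus UNC0638, and Sham replicate 3 lay inside the ligated range. The call (log2 fold change 0.69 ± 0.26 SE, adjusted p = 0.0435) was lost without Sham replicate 1, 2 or 4, or without SNL replicate 1 or 4, or without SNL plus UNC0638 replicate 2 or 3 (log2 fold change 0.46 to 0.81, adjusted p = 0.0517 to 0.205), at 0.0505 without the minimum value, and at 0.0619 with only the 2 groups in the fit. SNL against Sham gave a log2 fold change of 0.50 (adjusted p = 0.103), which passed with upper-quartile scaling, with both replicates 3 left out and without Sham replicate 3 (log2 fold change 0.70, adjusted p = 0.0196). Tnfsf13b (BAFF), which keeps B cells alive, read 4.17, 2.27, 7.79 and 3.84 in Sham, 16.0, 7.72, 7.51 and 7.30 in SNL and 16.1, 9.28 and 15.5 in SNL plus UNC0638. The UNC0638 libraries were above all of Sham and overlapped SNL. Tnfsf13b passed the minimum value only through ligated libraries, so a difference from Sham is in part built into its selection. It was called against Sham after UNC0638 (log2 fold change 1.46 ± 0.42 SE, adjusted p = 0.0132) and in SNL against Sham (log2 fold change 0.96, adjusted p = 0.0602) with upper-quartile scaling, with both replicates 3 left out and without Sham replicate 3 (log2 fold change 1.22, adjusted p = 0.0218).

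Tnfsf15, the ligand of Tnfrsf25, was the 1 tested ligand with no call. Its ranges were 20.4 to 33.8 in Sham, 12.8 to 24.5 in SNL and 20.1 to 31.4 in SNL plus UNC0638, and all 3 overlapped. The log2 fold change after ligation was -0.47 (adjusted p = 0.161), with a 95% interval -1.05 to 0.11.

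**Figure D2:**
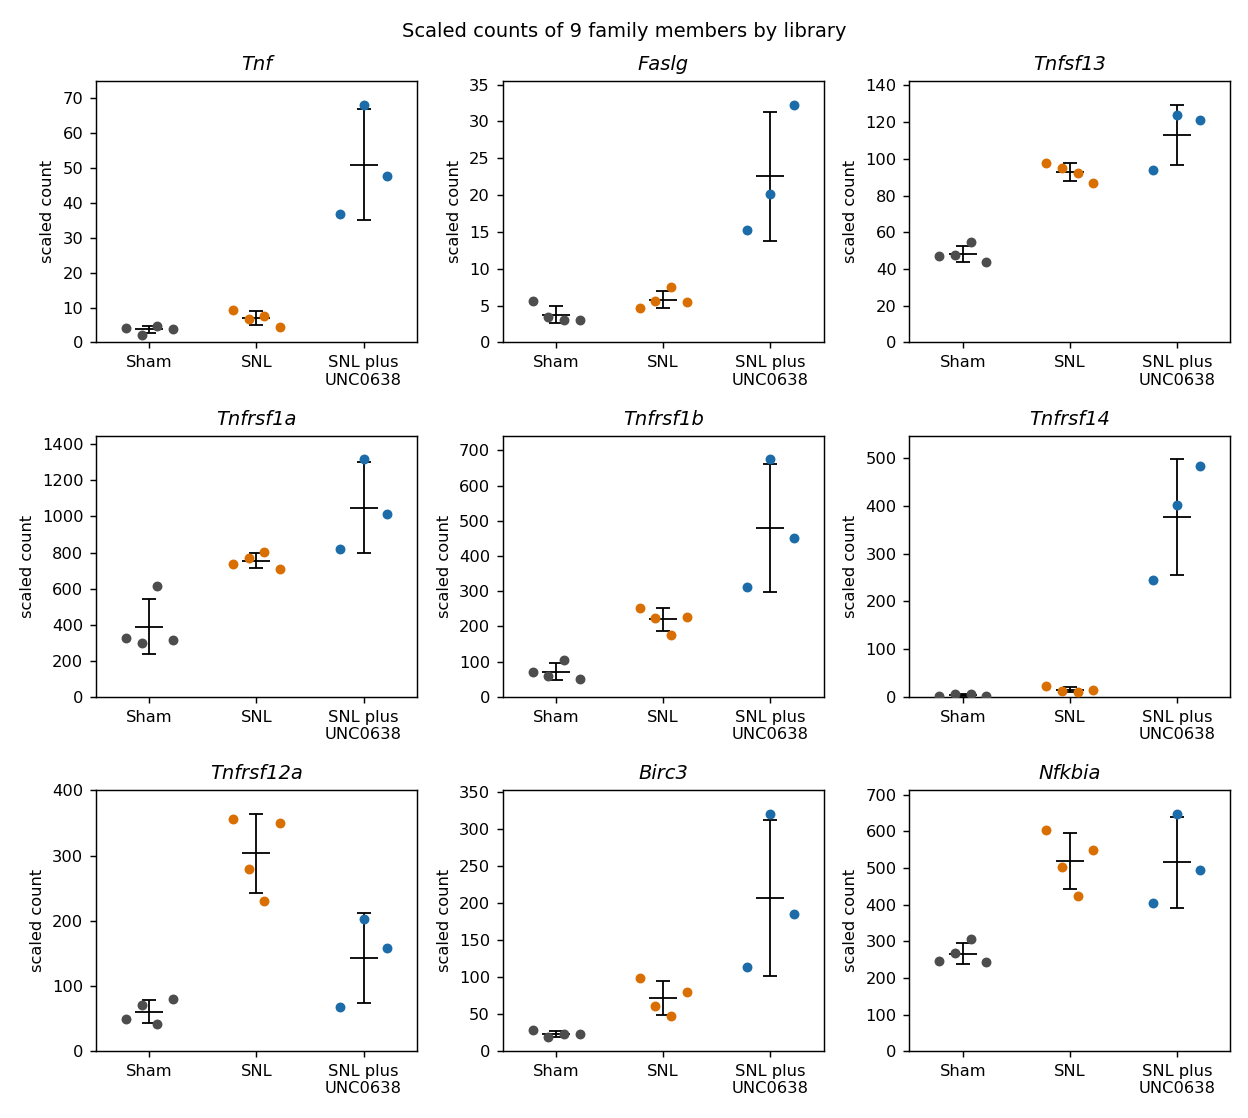
Scaled counts of 9 members by group on linear axes from 0, each point 1 library (4 Sham, 4 SNL, 3 SNL plus UNC0638), with the group mean and SD in black. Tnf, Faslg and Tnfrsf14 are highest in the 3 SNL plus UNC0638 libraries, and Tnfrsf12a is highest in the 4 SNL libraries, at 229.8 to 356.

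Of the 5 death domain receptors, Tnfrsf1a and Tnfrsf25 rose after ligation. Tnfrsf1a, the broadly expressed TNF receptor, read 326, 301, 615 and 314 in Sham, 736, 770.4, 805 and 707 in SNL and 818, 1317 and 1011 in SNL plus UNC0638. The 3 groups did not overlap, and Sham replicate 3 was well above the rest of its group. Tnfrsf1a rose 1.94-fold with ligation (log2 fold change 1.02 ± 0.22 SE, adjusted p = 0.0026) and was 2.70-fold above Sham after UNC0638 (log2 fold change 1.47 ± 0.23 SE, adjusted p = 0.000532). The step from SNL to SNL plus UNC0638 (log2 fold change 0.45, adjusted p = 0.166) passed only without Sham replicate 3 (log2 fold change 0.45, adjusted p = 0.0295) or with both replicates 3 left out.

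Tnfrsf25, or death receptor 3, is known from T cells and read 16.7, 4.54, 4.67 and 4.61 in Sham, 16.9, 12.9, 9.76 and 25.5 in SNL and 46.6, 69.6 and 67.1 in SNL plus UNC0638. Every UNC0638 library lay above all the others, and Sham replicate 1 lay inside the SNL range, which made Sham and SNL overlap. The UNC0638 libraries were 3.76-fold above SNL (log2 fold change 1.91 ± 0.45 SE, adjusted p = 0.0107) and 8.01-fold above Sham (log2 fold change 3.03 ± 0.45 SE, adjusted p = 0.000383). The call in SNL against Sham (log2 fold change 1.13 ± 0.42 SE, adjusted p = 0.0429) was lost without Sham replicate 2, 3 or 4, or without SNL replicate 1, 2 or 4, or without SNL plus UNC0638 replicate 2 or 3 (log2 fold change 0.89 to 1.21, adjusted p = 0.0561 to 0.123). It was also lost with 5 added (0.80, adjusted p = 0.0537) and with only the 2 groups in the fit (adjusted p = 0.069).

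Tnfrsf10b, the receptor of Tnfsf10, gave 5.56, 6.82, 10.9 and 3.07 in Sham, 6.58, 14.6, 12.8 and 17.3 in SNL and 27.8, 41.8 and 31.0 in SNL plus UNC0638. Its UNC0638 libraries were the 3 highest, and SNL replicate 1 lay within Sham. It was 5.08-fold above Sham after UNC0638 (log2 fold change 2.27 ± 0.41 SE, adjusted p = 0.00109) and 2.62-fold above SNL (log2 fold change 1.37 ± 0.41 SE, adjusted p = 0.0295). The latter call was lost without SNL replicate 1 or 2, or without SNL plus UNC0638 replicate 2 or 3 (log2 fold change 1.11 to 1.45, adjusted p = 0.051 to 0.109). SNL against Sham (log2 fold change 0.90, adjusted p = 0.0722) passed without Sham replicate 3, or without SNL replicate 1 (log2 fold change 1.15 to 1.16, adjusted p = 0.0243 to 0.0306). In RefSeq the gene overlaps Rhobtb2.

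Fas and Tnfrsf21 were not called in any comparison. Fas ranged over 59.2 to 99.98 in Sham, 52.7 to 86.6 in SNL and 90.6 to 108 in SNL plus UNC0638, with a log2 fold change of -0.14 (adjusted p = 0.588) after ligation (95% interval -0.58 to 0.30). The UNC0638 libraries did lie above every SNL library (log2 fold change 0.50, adjusted p = 0.104), and they overlapped Sham. Tnfrsf21, or death receptor 6, known for its part in axon degeneration, ranged over 3379 to 6141 in Sham, 3912 to 6712 in SNL and 4473 to 4769 in SNL plus UNC0638. Its log2 fold change after ligation was 0.39 (adjusted p = 0.168), with a 95% interval -0.096 to 0.87, and it passed without Sham replicate 3 (log2 fold change 0.60, adjusted p = 0.0164). Between the ligated groups its interval was -0.68 to 0.36.

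Tnfrsf14 (HVEM), a receptor of lymphoid and myeloid cells that also binds the inhibitory receptor BTLA, had, among the 29 tested members, the largest fitted log2 fold change between SNL plus UNC0638 and either other group. Scaled counts were 1.39, 6.82, 6.23 and 1.54 in Sham, 23.5, 12.9, 11.3 and 14.6 in SNL and 244, 402 and 482 in SNL plus UNC0638, from an estimated 13, 86 and 906 reads. The 3 groups did not overlap, and the lowest UNC0638 library was far above the highest SNL one. Tnfrsf14 rose 3.89-fold with ligation (log2 fold change 1.89 ± 0.44 SE, adjusted p = 0.00407). SNL plus UNC0638 was 24.2-fold above SNL (log2 fold change 4.51 ± 0.47 SE, adjusted p = 0.000273) and 94.2-fold above Sham (log2 fold change 6.40 ± 0.47 SE, adjusted p = 2.7e-05). With 5 added instead of 1, the differences from Sham were 1.22 for SNL and 5.41 for SNL plus UNC0638 on the log2 scale. Tnfrsf14 passed the minimum value only through ligated libraries, so the differences from Sham are in part built into its selection. Its ligand Tnfsf14 (LIGHT) was listed at 0 in all 11 libraries, which allows up to 3 reads in each, or 1.29 to 4.67 scaled counts, for counting error only.

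Tnfrsf1b, the second TNF receptor, which is found mainly on immune, glial and endothelial cells, rose at each step. It read 70.9, 60.2, 104 and 50.7 in Sham, 251, 225, 176 and 228 in SNL and 312, 675 and 451 in SNL plus UNC0638. None of the 3 groups overlapped. The SNL mean was 3.07-fold that of Sham (log2 fold change 1.65 ± 0.26 SE, adjusted p = 0.000427). The SNL plus UNC0638 mean was 2.18-fold that of SNL (log2 fold change 1.06 ± 0.28 SE, adjusted p = 0.0163) and 6.70-fold that of Sham (log2 fold change 2.71 ± 0.28 SE, adjusted p = 7.69e-05). The call between the ligated groups was lost without SNL plus UNC0638 replicate 2 (log2 fold change 0.78, adjusted p = 0.0757), its highest library.

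Tnfrsf12a, known as Fn14 and as a gene induced by tissue injury, went up with ligation and was lower after UNC0638. Its values were 50.1, 71.6, 42.1 and 79.9 in Sham, 356, 279, 229.8 and 349 in SNL and 67.3, 203 and 159 in SNL plus UNC0638. SNL was clear of both other groups, while SNL plus UNC0638 replicate 1 lay inside the Sham range. Ligation raised it 4.98-fold (log2 fold change 2.32 ± 0.32 SE, adjusted p = 0.000226). After UNC0638 the mean was 0.471 of the SNL mean (log2 fold change -1.20 ± 0.35 SE, adjusted p = 0.0251) and 2.35-fold the Sham mean (log2 fold change 1.12 ± 0.35 SE, adjusted p = 0.0182). The decrease was not called without SNL replicate 1 or 4, or without SNL plus UNC0638 replicate 1 (log2 fold change -1.13 to -0.73, adjusted p = 0.0605 to 0.0817), and the difference from Sham was not called without SNL plus UNC0638 replicate 2 or 3 (log2 fold change 0.80 to 0.98, adjusted p = 0.0761 to 0.0993). Without SNL plus UNC0638 replicate 1, the library with muscle transcripts, the log2 fold change was -0.73. Injured neuron genes moved with it, summing over 8 genes to 3799 to 5038 in Sham, 25707 to 39551 in SNL and 3695 to 13484 in SNL plus UNC0638. All 8 were called higher in SNL (24.8% of all genes) and lower after UNC0638 (14.3% of all genes). Their part in the result was not tested.

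Tnfrsf8 (CD30), a receptor of activated lymphocytes, was measurable mainly in SNL. It read 0, 2.27, 1.56 and 0 in Sham, 14.1, 14.1, 12.8 and 21.9 in SNL and 0, 6.19 and 7.74 in SNL plus UNC0638, or an estimated 3, 89 and 10 reads. The SNL libraries lay above all the others, and UNC0638 overlapped Sham. The increase in SNL was called (log2 fold change 3.27 ± 0.68 SE, adjusted p = 0.00224), and its size was 1.80 with 5 added and 3.86 with 0.5 added, since Sham is close to 0. Tnfrsf8 passed the minimum value through SNL libraries alone. The differences of SNL from both other groups are in part built into that selection. The lower value after UNC0638 was not called (log2 fold change -2.04 ± 0.73 SE, adjusted p = 0.0558), except without Sham replicate 3, or without SNL plus UNC0638 replicate 3 (log2 fold change -2.61 to -2.04, adjusted p = 0.0401 to 0.0492) and with 5 added (-1.19, adjusted p = 0.0199). Against Sham, SNL plus UNC0638 gave a log2 fold change of 1.22 (adjusted p = 0.179), which passed without SNL plus UNC0638 replicate 1 (log2 fold change 2.22, adjusted p = 0.00755). Tnfrsf8 and Tnfrsf1b are neighbours.

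Tnfrsf18 (GITR), a receptor of regulatory and activated T cells, gave 1.39, 1.14, 0 and 0 in Sham, 19.8, 12.4, 3.00 and 10.9 in SNL and 5.38, 30.9 and 34.8 in SNL plus UNC0638, from an estimated 2, 66 and 53 reads. All ligated libraries were above Sham and the ligated groups overlapped. Tnfrsf18 passed the minimum value only through ligated libraries, so a difference from Sham is in part built into its selection. It was called in SNL (log2 fold change 2.84 ± 0.66 SE, adjusted p = 0.00414) and in SNL plus UNC0638 against Sham (log2 fold change 3.69 ± 0.71 SE, adjusted p = 0.00143). These sizes depend on the added constant, and with 5 added they were 1.45 and 2.14. Without SNL plus UNC0638 replicate 1, its lowest treated library, the latter was 4.49 (adjusted p = 0.000355).

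Tnfrsf11a (RANK), the receptor of Tnfsf11, was not called after ligation and was higher after UNC0638. The values were 50.1, 63.6, 95.0 and 53.8 in Sham, 73.4, 71.6, 60.1 and 93.9 in SNL and 135, 192 and 160.0 in SNL plus UNC0638. Sham and SNL overlapped, and each UNC0638 library lay above them. It was 2.17-fold above SNL (log2 fold change 1.11 ± 0.24 SE, adjusted p = 0.00708) and 2.47-fold above Sham (log2 fold change 1.32 ± 0.24 SE, adjusted p = 0.00108), and SNL against Sham gave a log2 fold change of 0.21 (adjusted p = 0.453) with a 95% interval -0.27 to 0.70. Tnfrsf11b (osteoprotegerin), the secreted decoy of the same ligand, read 23.6, 29.5, 26.5 and 15.4, then 60.2, 25.7, 33.8 and 58.4, then 38.6, 43.3 and 51.6 in that order of groups. SNL overlapped Sham at its lower end. The call in SNL (log2 fold change 0.83 ± 0.31 SE, adjusted p = 0.0416) was lost without Sham replicate 1 or 4, or without SNL replicate 1 or 4, or without SNL plus UNC0638 replicate 2 or 3 (log2 fold change 0.64 to 0.84, adjusted p = 0.051 to 0.121), and with only the 2 groups in the fit (adjusted p = 0.0616). In SNL plus UNC0638 against Sham (log2 fold change 0.91 ± 0.33 SE, adjusted p = 0.0377) it was lost without Sham replicate 1 or 4, or without SNL plus UNC0638 replicate 2 or 3 (log2 fold change 0.72 to 0.92, adjusted p = 0.0651 to 0.122).

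Ltbr, the lymphotoxin beta receptor, rose in both ligated groups. It read 426, 421, 488 and 417 in Sham, 888, 687, 668 and 819.9 in SNL and 527, 917 and 804 in SNL plus UNC0638, each ligated library above each Sham one. The increase was 1.75-fold in SNL (log2 fold change 0.80 ± 0.16 SE, adjusted p = 0.00219) and 1.71-fold in SNL plus UNC0638 (log2 fold change 0.74 ± 0.18 SE, adjusted p = 0.00505). Between the ligated groups it gave a log2 fold change of -0.059 (adjusted p = 0.819), with a 95% interval -0.45 to 0.33.

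Tnfrsf19 (TROY), a receptor of neural cells that can join the Nogo receptor complex, gave 25.0, 34.1, 73.2 and 40.7 in Sham, 214, 153, 219 and 159 in SNL and 72.6, 254 and 197 in SNL plus UNC0638. SNL lay wholly above Sham, and SNL plus UNC0638 replicate 1 was below Sham replicate 3. It rose 4.30-fold in SNL (log2 fold change 2.17 ± 0.39 SE, adjusted p = 0.000977) and 4.03-fold in SNL plus UNC0638 (log2 fold change 1.92 ± 0.42 SE, adjusted p = 0.00302). Tnfrsf26, another receptor of the family, read 20.9, 15.9, 7.79 and 13.8, then 41.4, 31.7, 26.3 and 63.8, then 64.6, 75.8 and 90.3 in that order, with no overlap between any groups. It rose 2.80-fold in SNL (log2 fold change 1.42 ± 0.33 SE, adjusted p = 0.00422) and 5.27-fold in SNL plus UNC0638 against Sham (log2 fold change 2.38 ± 0.36 SE, adjusted p = 0.000383). The difference between ligated groups (log2 fold change 0.96, adjusted p = 0.0613) passed without Sham replicate 3, or without SNL replicate 4 (log2 fold change 0.96 to 1.20, adjusted p = 0.0282 to 0.0326), with 5 added (0.89, adjusted p = 0.0446) and with only the 2 groups in the fit.

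Cd40, the costimulatory receptor of antigen-presenting cells, read 8.35, 3.41, 15.6 and 3.84 in Sham, 25.4, 16.7, 7.51 and 15.5 in SNL and 18.8, 54.1 and 38.7 in SNL plus UNC0638. Its 3 groups were spread, with SNL replicate 3 below the highest Sham library and 1 UNC0638 library inside SNL. It was called only against Sham after UNC0638 (log2 fold change 2.21 ± 0.54 SE, adjusted p = 0.0055). SNL against Sham (log2 fold change 1.08, adjusted p = 0.0944) passed without Sham replicate 3, or without SNL replicate 3 (log2 fold change 1.38 to 1.45, adjusted p = 0.023 to 0.0413).

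**Figure D3:**
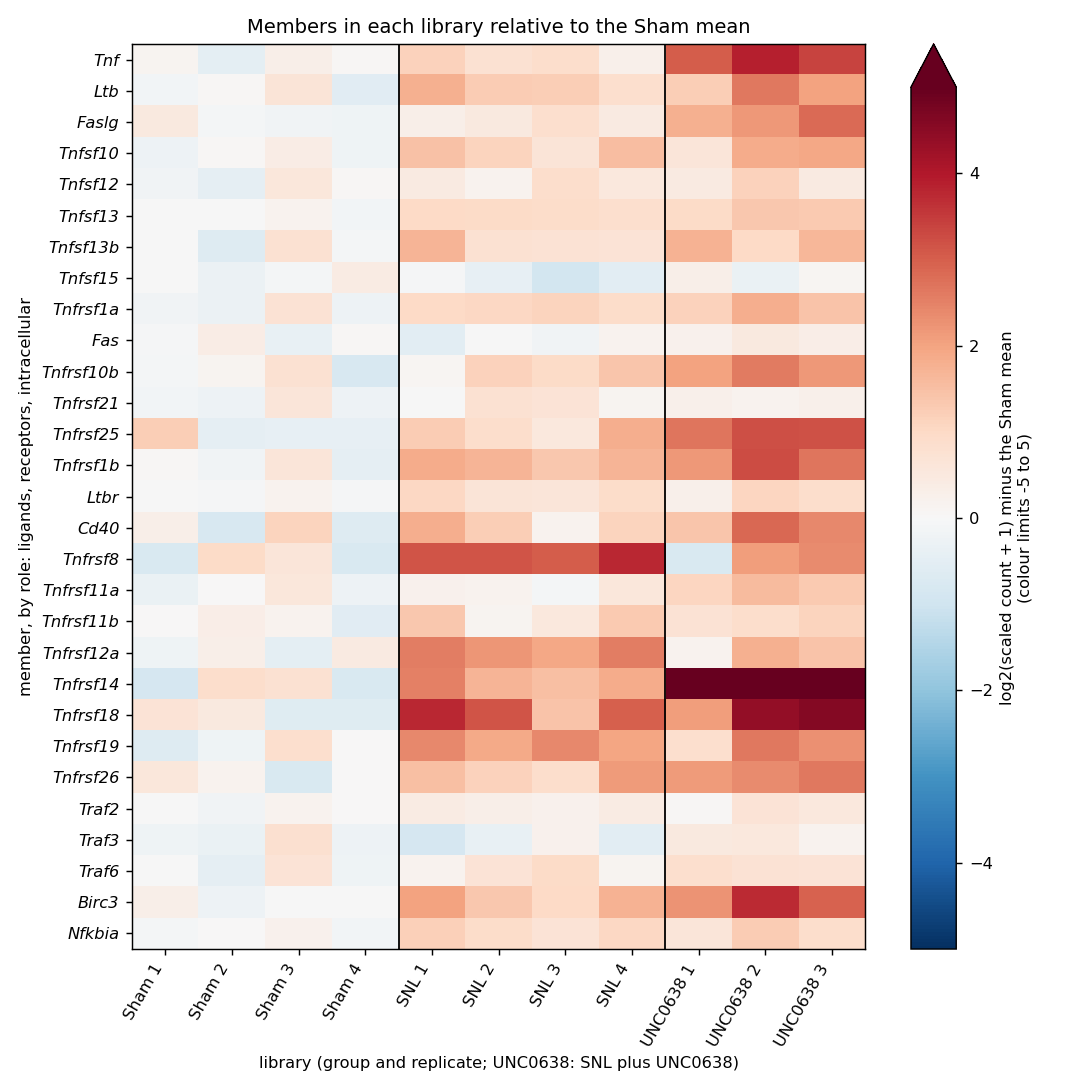
Each tested member's log2(scaled count + 1) in the 11 libraries minus its mean over the Sham libraries, grouped by role with a colour scale that ends 5 log2 units either side of 0. The 3 SNL plus UNC0638 columns of Tnfrsf14 are beyond the end of the scale.

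Inside the cell, the ubiquitin ligase Birc3 (cIAP2) rose at each step. It read 29.2, 19.3, 23.4 and 23.1 in Sham, 98.8, 61.3, 47.3 and 80.3 in SNL and 114, 320.2 and 186 in SNL plus UNC0638, with no overlap between any groups. The mean ± SD was 23.7 ± 4.09 (n = 4), 71.9 ± 22.4 (n = 4) and 207 ± 105 (n = 3). SNL stood at 3.03-fold the level of Sham (log2 fold change 1.52 ± 0.31 SE, adjusted p = 0.00211). After UNC0638 the level was 2.87-fold that of SNL (log2 fold change 1.44 ± 0.34 SE, adjusted p = 0.0103) and 8.70-fold that of Sham (log2 fold change 2.96 ± 0.34 SE, adjusted p = 0.000112).

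Nfkbia, the other feedback gene of NF-kB in the set, rose with ligation and was not called between the ligated groups. Its scaled counts were 248, 269, 305 and 244 in Sham, 605, 504, 423 and 549 in SNL and 404, 648 and 494 in SNL plus UNC0638. All ligated libraries were above Sham, and the ligated groups had nearly equal means, 520.3 ± 76.6 (SD, n = 4) and 516 ± 123 (SD, n = 3). It rose 1.95-fold in SNL (log2 fold change 0.96 ± 0.16 SE, adjusted p = 0.000602) and 1.93-fold in SNL plus UNC0638 (log2 fold change 0.93 ± 0.17 SE, adjusted p = 0.00117). The interval of the difference between the ligated groups was -0.40 to 0.35 on the log2 scale. Whether Nfkbia and Birc3 differ in their response to UNC0638 was not tested.

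Traf2, Traf3 and Traf6, adaptors that bind the receptor tails, were not called after ligation. Traf2 read 217, 191, 246 and 224 in Sham, 289, 268, 253 and 294 in SNL and 230.5, 351 and 315 in SNL plus UNC0638, with SNL just above Sham. It was called in SNL plus UNC0638 against Sham (log2 fold change 0.43 ± 0.15 SE, adjusted p = 0.0354), a call lost without Sham replicate 1, 2 or 4, or without SNL plus UNC0638 replicate 2 or 3 (log2 fold change 0.30 to 0.44, adjusted p = 0.0622 to 0.163) and with only the 2 groups in the fit (adjusted p = 0.0747). SNL against Sham (log2 fold change 0.33, adjusted p = 0.0728) passed without Sham replicate 3, or without SNL plus UNC0638 replicate 1 (log2 fold change 0.33 to 0.39, adjusted p = 0.0329 to 0.0432), with upper-quartile scaling and with only the 2 groups in the fit. Traf6, which also serves interleukin-1 and Toll-like receptors, gave 145, 108, 242 and 129, then 170.2, 241, 291 and 163, then 268, 244 and 236 in that order of groups. Sham replicate 3 was inside the ligated range and the groups overlapped. Its call in SNL plus UNC0638 against Sham (log2 fold change 0.74 ± 0.27 SE, adjusted p = 0.0354) was lost without Sham replicate 1, 2 or 4, or without SNL plus UNC0638 replicate 1, 2 or 3 (log2 fold change 0.59 to 0.78, adjusted p = 0.0692 to 0.0958), and SNL against Sham (log2 fold change 0.50, adjusted p = 0.115) passed without Sham replicate 3 (log2 fold change 0.73, adjusted p = 0.0102). Traf3, which restrains non-canonical NF-kB, ranged over 599.9 to 1335 in Sham, 417 to 872 in SNL and 844 to 1078 in SNL plus UNC0638 and was not called. SNL plus UNC0638 against SNL gave a log2 fold change of 0.77 (adjusted p = 0.0687) and passed without Sham replicate 3, or without SNL replicate 3 (log2 fold change 0.77 to 0.96, adjusted p = 0.015 to 0.0208) and with only the 2 groups in the fit, and against Sham (log2 fold change 0.38, adjusted p = 0.29) it passed without Sham replicate 3 (log2 fold change 0.65, adjusted p = 0.024).

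The 8 members too low to test were Lta, Cd40lg, Tnfsf4, Tnfsf11, Tnfsf14, Tnfrsf4, Tnfrsf9 and Tnfrsf17. Cd40lg, the T cell ligand of Cd40, was at 0 in all Sham libraries, at 0.751 to 2.14 in SNL and at 0, 4.64 and 6.45 in SNL plus UNC0638. Tnfsf11 (RANKL) was likewise at 0 in Sham, and read 2.82, 0, 1.50 and 6.38 in SNL and 6.28, 13.9 and 5.16 in SNL plus UNC0638. Tnfrsf4 (OX40), a costimulatory receptor of T cells, read 0, 2.27, 1.56 and 1.54, then 5.64, 6.43, 4.51 and 5.47, then 8.97, 6.19 and 18.1 in that order, so its ligated libraries all lay above Sham. Its ligand Tnfsf4 stayed at or below 6.58 and Tnfrsf17 (BCMA), a receptor of plasma cells, at or below 5.16. Tnfrsf9 (CD137) ranged over 2.78 to 9.09 in Sham, 3.65 to 12.2 in SNL and 7.74 to 20.1 in SNL plus UNC0638, which overlap. These values rest on few reads and carry no test.

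Other genes of the pathway were read from a list of 48 signalling genes outside the family, of which 38 were in the table and tested. After ligation 22 (57.9%, beside 24.8% of all genes) were called higher and 4 (10.5%, beside 23.4%) lower, namely Cyld, Sharpin, Traf3ip1 and Traf3ip2, with a median log2 fold change of 0.47. Ripk3, the kinase of necroptosis, read 13.9, 25.0, 29.6 and 26.9 in Sham, 197, 159, 138 and 217 in SNL and 70.0, 238 and 224 in SNL plus UNC0638, with SNL wholly above Sham. Ripk3 rose in SNL (log2 fold change 2.88 ± 0.37 SE, adjusted p = 0.000168), as did Litaf (log2 fold change 1.63, adjusted p = 0.000248) and the adaptor Traf4 (log2 fold change 1.32, adjusted p = 0.000268). Adam17, the protease that sheds TNF and its receptors, read 819, 824, 681 and 928 in Sham, 2301, 1748, 1436 and 2059 in SNL and 770.4, 1125 and 1171 in SNL plus UNC0638. SNL lay above both other groups, and Adam17 was higher in SNL than in Sham (log2 fold change 1.20 ± 0.18 SE, adjusted p = 0.000301) and lower in SNL plus UNC0638 than in SNL (log2 fold change -0.89 ± 0.19 SE, adjusted p = 0.00661).

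Between SNL plus UNC0638 and SNL, 7 genes of that list were higher (Traf3ip1, Traf3ip2, Nfkbiz, Bcl3, Nfkbie, Cyld and Ripk1) and 3 lower (Adam17, Tnfaip1 and Fadd), with a median of 0.10. These were 18.4% and 7.89% of the list, beside the 13.5% and 14.3% of all genes called higher and lower, and nothing is read from the counts. Nfkbiz, an inducible nuclear IkB protein, read 37.6, 28.4, 43.6 and 18.4 in Sham, 77.1, 81.0, 96.1 and 118 in SNL and 195, 325 and 250.3 in SNL plus UNC0638, with no overlap between groups. It was higher in SNL plus UNC0638 than in SNL (log2 fold change 1.44 ± 0.29 SE, adjusted p = 0.00474) and than in Sham (log2 fold change 3.00, adjusted p = 5.79e-05). Traf3ip1 gave a log2 fold change of 0.94 (adjusted p = 0.00257) and Traf3ip2, an adaptor of interleukin-17 receptors, a log2 fold change of 0.88 (adjusted p = 0.00204) between the ligated groups. Against Sham, SNL plus UNC0638 had 20 of the 38 higher (52.6%, beside 25.5% of all genes) and 2 lower (5.26%, beside 26.0%), Sharpin and Nfkbib, with a median of 0.57. The higher ones included the kinase Ripk1 (log2 fold change 1.52, adjusted p = 0.00012), the IkB family protein Bcl3 (log2 fold change 2.89, adjusted p = 0.000167) and Nfkb2, a subunit of non-canonical NF-kB (log2 fold change 2.06, adjusted p = 0.000215).

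Of 24 listed NF-kB target genes, 22 were tested. After ligation 17 were higher (77.3%, beside 24.8% of all genes) and none lower, with a median of 1.24. Among them were the macrophage growth factor Csf1 (log2 fold change 2.34, adjusted p = 0.000171) and the protease Plau (log2 fold change 1.36, adjusted p = 0.000271). The survival gene Bcl2a1 (log2 fold change 2.05, adjusted p = 0.000305) and Il6 (log2 fold change 3.74, adjusted p = 0.000382, or 1.93 with 5 added) rose as well. SNL plus UNC0638 against SNL had 9 higher (40.9%, beside 13.5% of all genes) and none lower, with a median of 0.76. They included Nos2 (log2 fold change 7.01, adjusted p = 0.000105, or 5.29 with 5 added) and Il1b (log2 fold change 2.95, adjusted p = 0.000213). The chemokine Ccl20 (log2 fold change 4.66, adjusted p = 0.000359, or 2.90 with 5 added) and Lcn2 (log2 fold change 2.95, adjusted p = 0.00103) were also among them. Nos2 and Ccl20 were tested at all only because their SNL plus UNC0638 libraries were high. The share is therefore in part fixed by the minimum value, and nothing is read from it. Against Sham 18 were higher (81.8%, beside 25.5% of all genes) and none lower, with a median of 2.21. They included Il1b (log2 fold change 4.50, adjusted p = 2.285e-05) and Nos2 (log2 fold change 6.66, adjusted p = 3.40e-05, or 5.15 with 5 added). Sele (log2 fold change 3.56, adjusted p = 5.79e-05, or 2.70 with 5 added) and Ccl20 (log2 fold change 4.69, adjusted p = 0.000109, or 2.91 with 5 added) were also higher. For Nos2 and Ccl20 the difference from Sham, too, is in part built into their selection. The sizes for Il6 and Sele shrank with 5 added because their Sham values were low. Their rises, and the shares after ligation and against Sham, may likewise be in part built into the minimum value. The counts of 0 come from limma at an adjusted p under 0.05, and at an unadjusted p under 0.05 they were 0 after ligation, 2 between the ligated groups and 0 against Sham.

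Summed markers of macrophages, T and NK cells and B cells were higher in both ligated groups than in Sham, and those of neutrophils only after UNC0638. Macrophage genes summed over 15 genes to 2704 to 5647 in Sham, 10065 to 19256 in SNL and 11197 to 20759 in SNL plus UNC0638, with Emr1 at 0 throughout. Of 14 tested, 13 were higher in SNL than in Sham. In SNL plus UNC0638, 2 were higher than in SNL and 14 higher than in Sham. Beside this list and those that follow, 24.8%, 13.5% and 25.5% of all genes were called higher in the 3 comparisons. The 2 of 14 (14.3%) is near that share of all genes, so nothing is read from it. T and NK cell genes summed over 14 genes to 47.7 to 74.8 in Sham, 232 to 469.7 in SNL and 223 to 620.5 in SNL plus UNC0638. Of 12 tested, 10 were higher in SNL than in Sham. In SNL plus UNC0638, 4 were higher and 1 lower than in SNL (14.3% of all genes lower), and 12 were higher than in Sham. With such low Sham totals, genes may have passed the minimum value only through ligated libraries. Part of these rises may then be built into their selection, and the same may hold for the neutrophil genes. Neutrophil genes summed over 12 genes to 33.8 to 250.4, 99.9 to 254 and 604 to 791, so that only the UNC0638 range stood clear of Sham. Of 6 neutrophil genes tested, 2 were higher in SNL than in Sham. In SNL plus UNC0638, 2 were higher than in SNL and 4 higher than in Sham. The neutrophil total after UNC0638 was mostly Csf3r, at 363, 521 and 476 against at most 58.6 in the other libraries, while the granule genes Mpo and Elane stayed at or below 4.64 in all 11. The neutrophil total was highest in the 3 libraries in which Tnf, Faslg, Tnfrsf25 and Tnfrsf14 were highest, and the part of these cell types in the results was not tested. B cell genes summed over 8 genes to 15.4 to 43.6, 55.6 to 108 and 86.1 to 155, beside the B cell ligands Tnfsf13 and Tnfsf13b. Fibroblast genes summed to 24041 to 33735 in Sham, 85909 to 217026 in SNL and 38017 to 93261 in SNL plus UNC0638. They reached their highest in SNL, as Tnfrsf12a did, but their ligated groups overlapped, and a link between them was not tested.

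**Figure D4:**
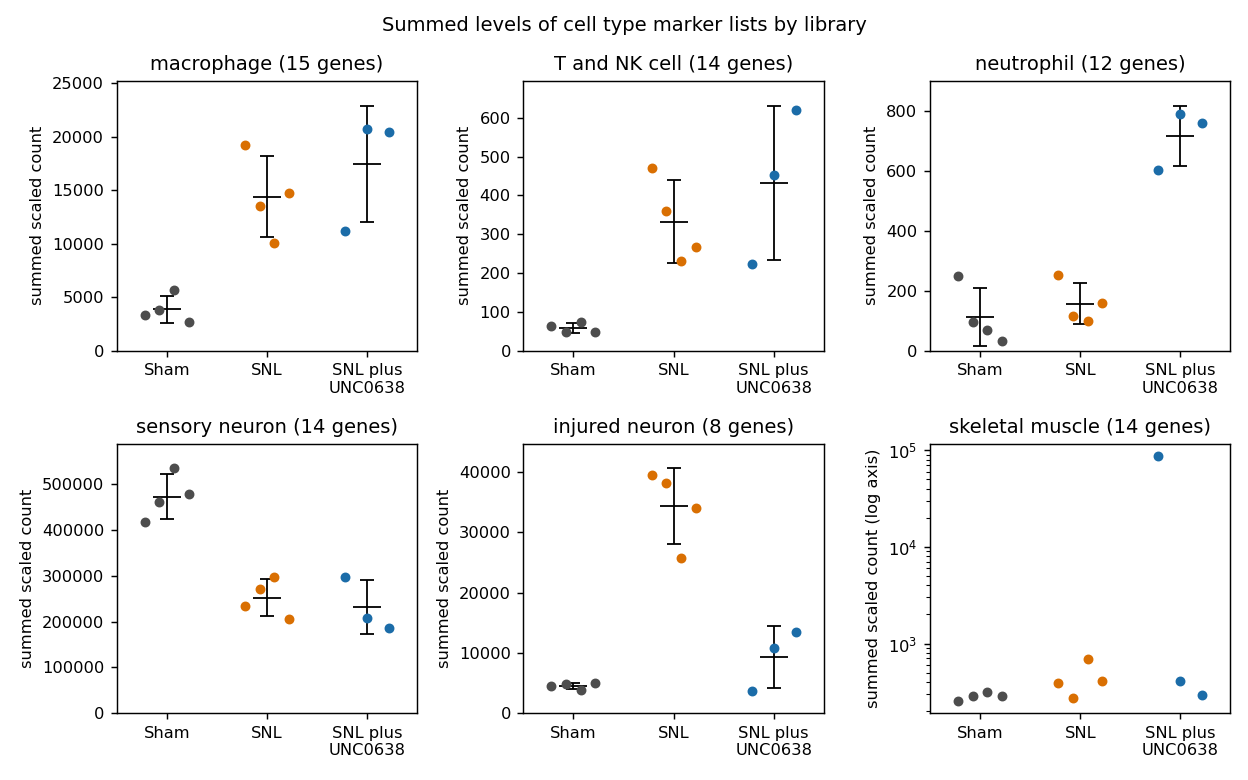
Summed scaled counts of 6 marker lists by group, each point 1 library, on linear axes from 0 with the mean and SD in black, except skeletal muscle on a log axis. Macrophage and T and NK cell totals are higher in all 7 ligated libraries than in Sham, the neutrophil total is highest in the 3 SNL plus UNC0638 libraries, and 1 SNL plus UNC0638 library stands at 87304 for skeletal muscle.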

How the data were processed

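Reads were aligned to rat build rn4, with TopHat2 2.0.9 and Cuffdiff 2.1.1 named, per the submitters' processing notes. Per the labels, RNA was extracted with either of 2 reagents, not given by sample, and libraries were stranded total RNA. The deposited values are a signal, gene counts already scaled by the authors with 1 factor per library. The low values lay on multiples of 1 step in 98.5% to 99.3% of cases, within 0.01 steps, and the rest did not, so no count model was fitted. The sources used here do not name the annotation or say if strand was used in counting.

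The 12085 genes with 10 or more scaled counts in 3 or more libraries were tested. Sdc2 and Pcdhgc5 were dropped because of their values, at 0 in a whole group. limma 3.58.1 (R 4.3.3, statmod 1.5.0) was fitted to log2(value + 1) over all 11 libraries with a mean per group, trend and robust eBayes. Tests were two-sided, adjusted by Benjamini-Hochberg over all genes tested, and called at an adjusted p under 0.05. Fold changes on this scale understate the change of low genes, and the ratios of group means printed beside them carry no added constant. The model was tested on simulated data.

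All members were reported, with every library's value for those called in at least 1 comparison, group ranges for the rest, and, for the pathway lists, those with the smallest adjusted p. Members and lists were chosen with earlier results of these data known, so no list count is independent support. Alternatives changed the scaling, minimum value, added constant, robust estimates, samples in the fit, threshold and libraries. Promoters came from RefSeq GRCr8, in which all 37 symbols are current. An entry was found for 26 members, and Tnfrsf14 and Birc3 are among those without one.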

Additional observations from a re-analysis of the deposited data

Results flagged for a closer look

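In 58 sets of 4 replicates (29 tested members in Sham and in SNL), 8 had a library farther from the others than Dixon's critical value allows, and chance gives about 1 in 20. Sham replicate 3 accounted for 4 of them. It read 615 for Tnfrsf1a, where the other Sham libraries read 301 to 326, and 6141 for Tnfrsf21, where they read 3379 to 3602. For Ltbr it read 488 beside 417 to 426, and for Traf3 1335 beside 599.9 to 648. Sham replicate 1 stood apart for the low-level genes Faslg, at 5.56 beside 3.07 to 3.41, and Tnfrsf25, at 16.7 beside 4.54 to 4.67. In SNL, replicate 1 stood apart for Tnfsf13b, at 16.0 beside 7.30 to 7.72, and replicate 4 for Tnfrsf8, at 21.9 beside 12.8 to 14.1. What sets these libraries apart was not tested.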

How the results depend on the processing

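Of the members called, 14 of 16 in SNL against Sham, 6 of 9 in SNL plus UNC0638 against SNL and 19 of 24 in SNL plus UNC0638 against Sham were called at an adjusted p under 0.05 in each alternative that tested them, those without 1 library included. Leaving out each library in turn, 26 to 29 members were tested. The counts of members called higher then ran from 14 to 22, 4 to 11 and 16 to 25 in the 3 comparisons, and the count of members lower between the ligated groups from 0 to 2. That count was 2 with 5 added and 0 at an adjusted p under 0.01, where 4 members were higher between the ligated groups. Without the minimum value or with other added constants, no count of higher members moved by over 1.5 times.

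Same-numbered Sham and SNL libraries deviated together only in part (r over genes 0.187, 0.0045, 0.431 and 0.0964), and not every library correlated best with its own number. The numbers were therefore not treated as pairs in the main fit. With so few libraries in a group, these correlations cannot settle whether the samples were paired. With a replicate block the members called higher were 14, 6 and 20, and 0 were lower between the ligated groups, and the signalling list gave 3 higher between the ligated groups in place of 7. Over all 12085 genes tested, the block gave 2793, 1055 and 2756 called higher, in place of 2995, 1630 and 3083. The members no longer called between the ligated groups were Tnfrsf10b (adjusted p = 0.0659), Tnfrsf1b (adjusted p = 0.055) and Tnfrsf12a (adjusted p = 0.0532).

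The directions that turned were of differences near 0, none of them called. Between the ligated groups, without 1 library, these were Tnfsf12 (-0.048 to 0.31), Ltbr (-0.22 to 0.18), Tnfrsf11b (-0.15 to 0.25, and -0.025 with both replicates 3 left out), Tnfrsf19 (-0.61 to 0.29), Traf2 (-0.031 to 0.27) and Nfkbia (-0.21 to 0.13). In SNL plus UNC0638 against Sham it was Tnfsf15 (-0.11 to 0.20, and -0.0060 with both replicates 3 left out). The cause was not tested. Tests on counts were not run. Members with fewer than 100 reads in a group, such as Tnf, Tnfrsf8 and Tnfrsf18, are limited by depth.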

Other observations

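Receptors of the superfamily whose symbols fall outside the naming rule were read from a list of 10 genes, of which 5 were in the table and 2 were tested. Ngfr, the low-affinity neurotrophin receptor and a death domain member of the superfamily, read 7962, 7731, 15301 and 9197 in the Sham libraries, 3692, 5015, 8058 and 4207 in SNL and 8482, 7957 and 5159.9 in SNL plus UNC0638. Sham replicate 3 was the highest library and the groups overlapped between Sham replicate 2 and SNL replicate 3. Ngfr fell after ligation (log2 fold change -0.95 ± 0.28 SE, adjusted p = 0.0154). It was not called in the others, which gave a log2 fold change of 0.49 (adjusted p = 0.232) between the ligated groups and a log2 fold change of -0.46 (adjusted p = 0.222) against Sham. Relt, the other gene tested, was not called in any comparison, and Cd70 was listed at 0 in every library.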
